A study of Rattus norvegicus with 6 samples.

Results

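The genes described here are Star, which encodes the carrier that brings cholesterol to the inner mitochondrial membrane, and 9 genes for other steps of cholesterol movement inside cells: Stard3, Stard4, Stard5, Tspo, Fdx1, Npc1, Npc2, Soat1 and Abca1. They were selected by gene symbol, and all 10 were found among the 21857 rows of the deposited count table. The set was chosen from the measured difference of Star between BCAA and vehicle, and the other 9 were added for their function. That same difference is the only contrast of the study. The values of the 10 genes are therefore given as a description, and no p-value is printed for them. Where the text states which of the 10 passed a threshold, nothing is read from it.

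The samples were adipose-derived mesenchymal stem cells, stromal cells that grow out of fat tissue, from Sprague Dawley rats, in 6 RNA sequencing libraries. All cells were in high-glucose DMEM made without branched chain amino acids (BCAA: leucine, isoleucine and valine), with 10% fetal bovine serum and penicillin/streptomycin. All were also exposed to 100 µM hydrogen peroxide, an oxidant, so that no group without it is part of the comparison. In the vehicle group (3 libraries) the cells received vehicle for 12 h, and in the BCAA group (3 libraries) they received 3.432 mM BCAA for 12 h. Whether replicates are separate animals or separate cultures is not stated in the labels, so the p-values and SDs given here may reflect technical spread.

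Cholesterol enters cells in lipoproteins, largely as esters that are hydrolysed in lysosomes, leaves them through the Niemann-Pick proteins NPC2 and NPC1, and is then passed between membranes by carriers, many of which have a lipid-binding START domain. Excess cholesterol is esterified by SOAT1 for storage in lipid droplets or exported by the membrane transporter ABCA1. In steroid-secreting cells STAR moves cholesterol into mitochondria, where CYP11A1 cleaves its side chain with electrons delivered by the ferredoxin FDX1. Mitochondrial cholesterol also feeds oxysterol formation by CYP27A1, an enzyme found in many cell types.

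Library totals ran from 12725344 to 15739731 counts, and vehicle replicate 1 stood apart from the other 5 libraries on the first principal component. Of 10 stromal markers looked up, 9 were found and all 9 had a mean of at least 1 CPM (counts per 1000000 on scaled library sizes), with a summed level of 12110 to 14705 CPM in vehicle and 12808 to 13686 CPM in BCAA libraries. The largest part was Col1a1 (7450 ± 1740 and 6930 ± 487 CPM, SD, n = 3), so the sum says little about the other markers. Vim was lower in mean with BCAA (1410 ± 56.9 and 1170 ± 44.8 CPM) and Cd44 higher (1460 ± 81.4 and 1580 ± 30.8 CPM). None of the 9 was called. Leukocyte and macrophage markers (9 of 10 found) summed to 869 to 1037 CPM in vehicle and 812 to 869 CPM in BCAA libraries, most of it Lyz2. Of these markers 8 had a mean of at least 1 CPM. Cd14 was at 108 ± 2.98 and 100 ± 2.98 CPM (SD, n = 3). The macrophage genes Cd68 (29.6 and 31.4 CPM), Mrc1 (29.5 and 32.8 CPM), Adgre1 (18.1 and 18.6 CPM) and Csf1r (16.8 and 17.9 CPM) were also detected. The pan-leukocyte gene Ptprc was at 15.1 ± 1.01 and 16.2 ± 1.22 CPM (SD, n = 3). Endothelial markers (5 of 6 found) summed to 7.92 to 8.95 and 7.86 to 9.79 CPM. Most of it was Tek (3.91 ± 0.982 and 3.42 ± 0.75 CPM) and Tie1 (3.62 ± 0.208 and 4.55 ± 0.822 CPM), while Cdh5 was at no more than 0.19 CPM. Adipocyte markers (7 of 7 found) summed to 4.13 to 6.09 and 6.15 to 7.63 CPM, without overlap but with a small gap. Most of it was Fabp4 (4.6 ± 0.849 and 5.88 ± 0.397 CPM), the 1 gene of the list tested, which was not called. Adipoq was at no more than 0.54 CPM. Markers of steroid-secreting cells (8 of 10 found) summed to 3.30 to 4.58 and 4.15 to 4.88 CPM, most of it Cyp19a1, the aromatase gene, at 3.46 ± 0.425 and 3.93 ± 0.251 CPM (SD, n = 3). The receptor genes Mc2r, Lhcgr and Fshr of that list had 0 counts in all 6 libraries, which allows up to 3 counts per library, that is 0.191 to 0.236 CPM by library (counting error only). Smooth muscle and pericyte markers (7 of 7 found) summed to 887 to 953 CPM in vehicle and 610 to 636 CPM in BCAA libraries, most of it Tagln (794 ± 32.7 and 519 ± 13.7 CPM), and 2 of the 6 tested, Tagln and Acta2, were called lower with BCAA. Their sum thus moved in the same direction as Star, and its part in the difference of Star was not tested. In bulk RNA, fewer cells that express a gene and less of its RNA per cell cannot be told apart.

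Star was lower with BCAA in every library. Its level was 337, 364 and 342 CPM in vehicle replicates 1 to 3 and 239.9, 230.1 and 217 CPM in BCAA replicates 1 to 3. The groups did not overlap: the lowest vehicle library was 1.41 times the highest BCAA library. The means were 348 ± 14.1 CPM in vehicle and 229 ± 11.3 CPM in BCAA libraries (SD, n = 3 each), a level 34.1% lower with BCAA (log2 fold change -0.60, SE 0.06, from the edgeR fit over all genes). Behind these levels stood 2776 to 5733 Star reads per library, so that counting alone adds an error of at most 1.9% to a library, under the spread of 4.04% (vehicle) and 4.94% (BCAA) between libraries. The log2 fold change lay between -0.64 and -0.57 over the 11 other ways of fitting that were tried. Ordered from the most negative log2 fold change, Star ranked 143 among all 12298 tested genes. Of the 8459 tested genes with a mean of at least 10 CPM, 12 had a more negative log2 fold change than Star. Since Star was chosen on this contrast, these ranks are a description only.

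**Figure D1:**
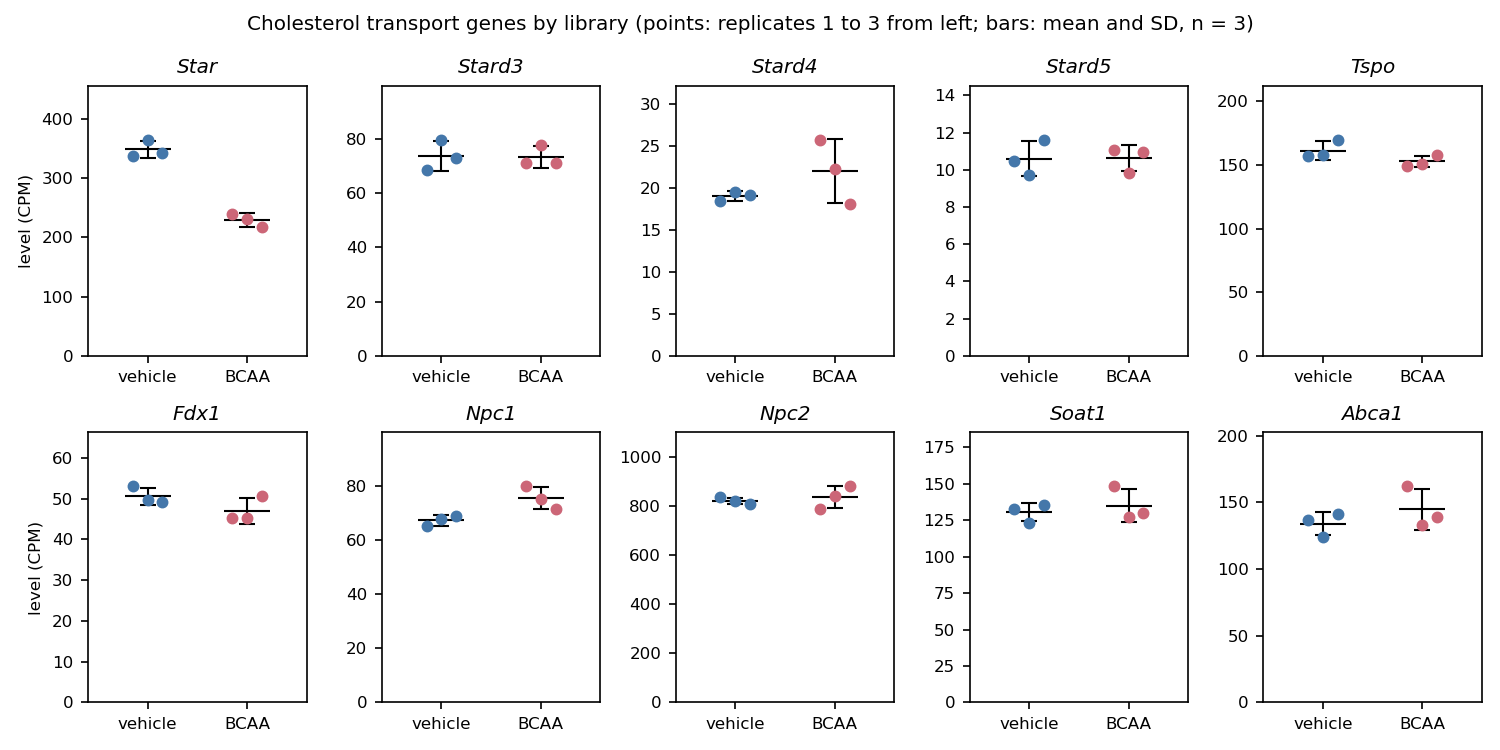
Level of each of the 10 cholesterol transport genes in CPM (vertical axes, each starting at 0) in the 3 vehicle and 3 BCAA libraries; points are libraries (replicates 1 to 3 from left) and bars the mean and SD. Star is at 337 to 364 CPM in vehicle and 217 to 239.9 CPM in BCAA libraries, while in the other genes the group means lie close together.

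None of the other 3 carriers with a START domain had a difference of the size seen in Star. Stard3 encodes a late endosomal membrane protein that binds cholesterol and acts at contacts with the endoplasmic reticulum. It was at 68.5, 79.7 and 73.0 CPM in vehicle and 71.1, 77.9 and 71.1 CPM in BCAA libraries. The BCAA range lay inside the vehicle range, and the log2 fold change was -0.01 (SE 0.08). Stard5, a soluble sterol or bile acid binding carrier, was the gene of the set with the fewest reads (140 to 164 per library, a counting error of up to 8.45%). It was at 10.5, 9.71 and 11.6 CPM in vehicle and 11.1, 9.82 and 10.96 CPM in BCAA libraries. The BCAA range again lay inside the vehicle range, with a log2 fold change of 0.01 (SE 0.13).

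Stard4, a soluble carrier that moves sterol to the endoplasmic reticulum and whose transcription is known to respond to the sterol-sensing factor SREBP2, varied most among the BCAA libraries. It was at 18.4, 19.5 and 19.2 CPM in the vehicle libraries and at 25.7, 22.3 and 18.1 CPM in BCAA replicates 1 to 3. BCAA replicates 1 and 2 thus lay above all vehicle libraries and BCAA replicate 3 below all of them. The coefficient of variation was 2.94% with vehicle and 17.4% with BCAA, and the log2 fold change was 0.21 (SE 0.13). Without BCAA replicate 1 it was 0.09 (SE 0.13) and without BCAA replicate 3 it was 0.33 (SE 0.12).

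The 2 genes that act at the mitochondrion beside Star, Tspo and Fdx1, were slightly lower in their means with BCAA, with overlapping groups. Tspo encodes the translocator protein of the outer mitochondrial membrane, a cholesterol-binding protein whose need in steroid formation is debated. It was at 157, 157 and 169.7 CPM in vehicle and 149, 151 and 158 CPM in BCAA libraries. Only the highest BCAA library reached into the vehicle range, and the log2 fold change was -0.08 (SE 0.07). Fdx1, the electron carrier for mitochondrial cytochrome P450 enzymes, was at 53.0, 49.6 and 49.1 CPM in vehicle and 45.2, 45.2 and 50.6 CPM in BCAA libraries. BCAA replicate 3 lay inside the vehicle range and the other BCAA libraries below it (log2 fold change -0.11, SE 0.08).

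Of the lysosomal pair, Npc1 was higher in mean with BCAA and Npc2 was not separated. Npc1, the membrane protein that takes cholesterol out of the late endosome and lysosome, was at 65.2, 67.9 and 69.2 CPM in vehicle and 79.98, 75.5 and 71.7 CPM in BCAA libraries. All BCAA libraries lay above all vehicle libraries, the only gene of the set besides Star without overlap. The gap between the groups was small: the means were 67.4 ± 2.05 and 75.7 ± 4.15 CPM (SD, n = 3 each), 12.4% higher with BCAA (log2 fold change 0.17, SE 0.07), and the log2 fold change ran from 0.12 to 0.20 when libraries were left out in turn. Npc2, the soluble lysosomal protein that hands cholesterol to NPC1, was at 836, 820.2 and 809.8 CPM in vehicle and 789, 842 and 881 CPM in BCAA libraries. The vehicle libraries lay inside the range of the BCAA libraries (log2 fold change 0.03, SE 0.06).

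Soat1 and Abca1, which dispose of excess cholesterol by esterification and by export, had overlapping groups. Soat1, the acyl transferase that makes cholesterol esters, was at 133, 123 and 136 CPM in vehicle and 148, 127 and 129.7 CPM in BCAA libraries (log2 fold change 0.05, SE 0.08). Abca1, the transporter that loads cholesterol onto apolipoprotein A-I and a known target of the oxysterol receptors LXR, was at 137, 124 and 141 CPM in vehicle and 162, 133 and 139 CPM in BCAA libraries (log2 fold change 0.11, SE 0.08). In both genes BCAA replicate 1 lay above every other library, and the remaining BCAA libraries lay within the vehicle range.

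BCAA replicate 1 was the highest of the 6 libraries in 4 genes, Stard4, Npc1, Soat1 and Abca1. Without that library the log2 fold changes were 0.12 (SE 0.08) for Npc1, 0.02 (SE 0.08) for Abca1 and -0.03 (SE 0.08) for Soat1. The value of Abca1 was thus near 0 and that of Soat1 negative once this library was left out. BCAA replicate 3 was the lowest of the BCAA libraries in Star, Stard4 and Npc1 and the highest in Tspo, Fdx1 and Npc2.

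All 10 genes passed the low-count filter. Star was the 1 gene of the 10 with an adjusted p under 0.05 in edgeR's quasi-likelihood test, which called 0.228% of the 12298 genes tested (0.171% lower with BCAA). With the replicate number as a block 0.0488% of genes were called, Star among them. Since this contrast chose Star, nothing is read from these counts. Among the other 9 genes, 6 had a positive and 3 a negative log2 fold change, from -0.11 to 0.21. The median of the 10 was 0.02, beside 0.00 over all genes tested. Groups without overlap were seen in 2 of the 10 genes, beside 18.1% of all genes tested (8.76% lower and 9.29% higher with BCAA). In 8 of the 10 genes the log2 fold change was within 2 SE of 0, the exceptions being Star and Npc1. The share of all genes beyond 2 SE was not counted. At the similar limit of an unadjusted edgeR p under 0.05 it was 11.8%, so nothing is read from these 2 exceptions. Missing the threshold does not show that a gene did not differ: with SE values of 0.06 to 0.13, small differences could not be resolved.

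**Figure D2:**
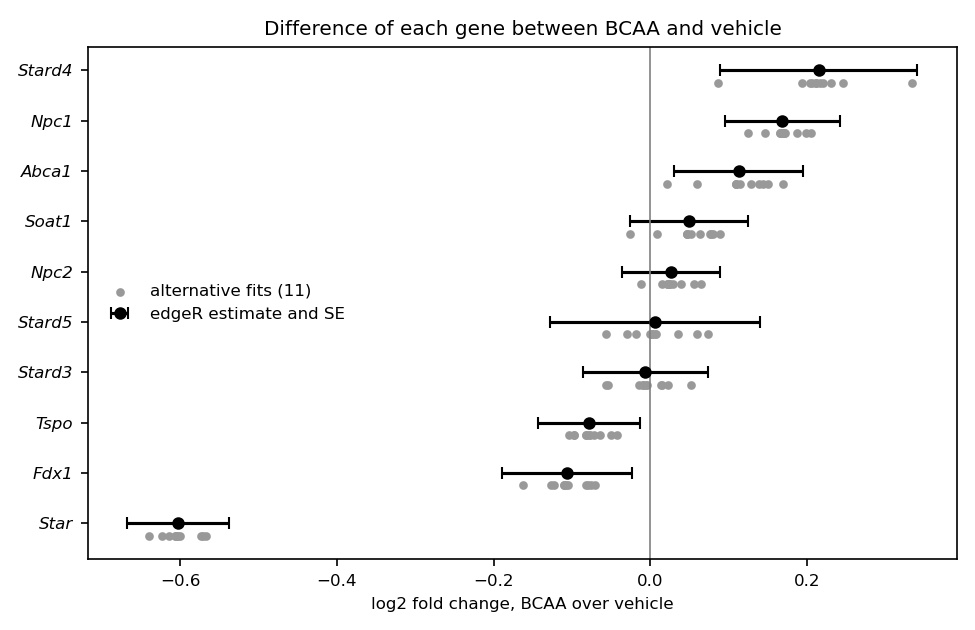
Log2 fold change of BCAA over vehicle (horizontal axis) for the 10 genes, ordered by size; black points and bars are the edgeR estimate and its SE, grey points the 11 alternative fits. Star lies at -0.60 with all alternatives between -0.64 and -0.57, and the other 9 genes lie between -0.11 and 0.21.

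None of the other genes of cholesterol handling looked up was called. In 10 lists of related genes 163 of 167 symbols were found, 2 of them under an older symbol, and 146 were tested. None of the 146 had an adjusted p under 0.05 in edgeR. At an unadjusted p under 0.05 there were 19 (13.0%), beside 11.8% of all genes tested. With DESeq2, which called 1.03% of all genes, 3 were called. Their median log2 fold change was 0.02, with 83 positive and 63 negative values. The lowest, that of Cd36 (-0.58, SE 0.29), was close to that of Star with a far larger error, and under 6 of the 11 alternatives at least 1 of Cd36, Acot11 and Abcg2 lay below Star. The groups did not overlap in 30 of them (20.5%, beside 18.1% of all genes tested), 19 higher and 11 lower with BCAA. Without vehicle replicate 1, the library that stood apart, edgeR called 3.93% of all genes and 12 of these 146, of which 7 were higher and 5 lower with BCAA.

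**Figure D3:**
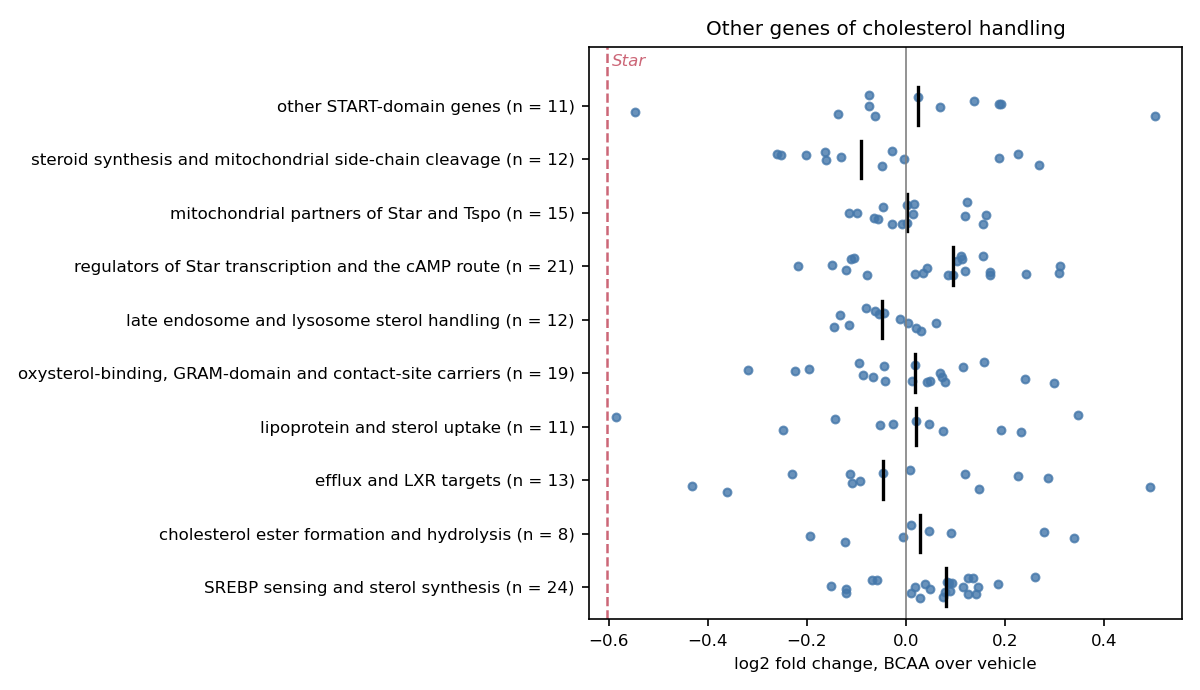
Log2 fold change of BCAA over vehicle (horizontal axis) of 146 other genes in 10 lists of cholesterol handling; each point is a gene, black ticks are list medians and the dashed line marks Star at -0.60. All points lie to the right of the dashed line, and the list medians lie between -0.09 and 0.10.

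No further START-domain gene was called. Of 11 tested none was called and none had an unadjusted p under 0.05 (median log2 fold change 0.02, 6 positive and 5 negative). Stard13 was at 86.0 ± 3.76 CPM in vehicle and 78.1 ± 0.976 CPM in BCAA libraries (log2 fold change -0.14, SE 0.07, edgeR adjusted p = 0.47). Its relative Stard8 was at 2.04 ± 0.682 and 2.93 ± 0.346 CPM (adjusted p = 0.51) and the acyl-CoA thioesterase gene Acot11 at 0.902 ± 0.266 and 0.620 ± 0.107 CPM (adjusted p = 0.65), both with fewer than 50 reads per library.

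Several genes for steroid synthesis were at or near 0 in these libraries, while others, such as Cyp19a1 with 46 to 66 counts per library (log2 fold change 0.19, SE 0.20), were detected in all of them. Cyp11a1, the side-chain cleavage enzyme that uses the cholesterol delivered by STAR, had 0 counts in each vehicle library and 2, 1 and 2 counts in BCAA replicates 1 to 3. Cyp17a1 had 0 counts in the vehicle libraries and at most 1 in a BCAA library, and Nr5a1, the factor that drives steroidogenic genes, had 3 to 11 counts per library. These levels are too low for a comparison of the groups, while Star had 2776 to 5733 reads in the same libraries. Of 20 genes listed 12 were tested, none was called, and 2 had an unadjusted p under 0.05 (median log2 fold change -0.09, 3 positive and 9 negative). The lean to negative values depended on single libraries. There were 2 positive and 10 negative values without vehicle replicate 1. Without vehicle replicate 3, and likewise without BCAA replicate 1, 6 were positive and 6 negative.

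Hsd11b1, which reactivates glucocorticoids in fat, was the gene of that list with the smallest p. It was at 430, 387 and 386 CPM in vehicle and 316, 330 and 359 CPM in BCAA libraries, without overlap (log2 fold change -0.26, SE 0.07, edgeR adjusted p = 0.14). Without vehicle replicate 1 its log2 fold change was -0.21 and it was called (edgeR adjusted p = 0.039). Fdx1l (Fdx2), the ferredoxin of iron-sulfur cluster assembly, was at 52.9 ± 5.05 CPM in vehicle and 44.4 ± 1.63 CPM in BCAA libraries (adjusted p = 0.28), and was called without vehicle replicate 1 (log2 fold change -0.33, adjusted p = 0.019). Cyp11b2, which the symbol names as aldosterone synthase, was at 48.0 ± 6.38 and 41.8 ± 3.00 CPM (adjusted p = 0.46), with a log2 fold change of -0.20 that was -0.088 without vehicle replicate 1. How the counting treated strand is not stated, and its near-identical relative Cyp11b1 was looked up but not found among the gene symbols. The origin of those reads is therefore uncertain.

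Partners of STAR and TSPO at the mitochondrion included no called gene among 15 tested (median log2 fold change 0.00, 8 positive and 7 negative, 2 with an unadjusted p under 0.05). Acsl4, an acyl-CoA synthetase for arachidonate, was at 545 ± 38.0 CPM in vehicle and 609.5 ± 19.6 CPM in BCAA libraries (log2 fold change 0.16, SE 0.07, edgeR adjusted p = 0.35). It was called without vehicle replicate 1 (log2 fold change 0.22, adjusted p = 0.018). The outer membrane channel gene Vdac1 was at 129.6 ± 7.72 and 144 ± 5.61 CPM (adjusted p = 0.41), and the 14-3-3 gene Ywhag at 583 ± 23.5 and 636 ± 15.2 CPM (adjusted p = 0.44).

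Among factors known to control transcription of Star, and the cyclic AMP route upstream of them, none of 21 tested genes was called. Their median log2 fold change was 0.10, with 15 positive and 6 negative values, and 2 had an unadjusted p under 0.05. The lean to positive values was absent without vehicle replicate 1, with 10 positive and 11 negative values (median -0.0012). The AP-1 subunit gene Jun was at 155 ± 26.8 CPM in vehicle, where replicate 1 was low (124 CPM beside 174 and 166 CPM), and at 183 ± 8.29 CPM in BCAA libraries (edgeR adjusted p = 0.37). Its log2 fold change was 0.24, and 0.11 without vehicle replicate 1. Atf1, a CREB family factor, was at 75.7 ± 2.25 and 85.3 ± 4.99 CPM (adjusted p = 0.38). Gata6, of the GATA factors that bind the Star promoter, was at 24.0 ± 1.03 and 20.7 ± 1.80 CPM (adjusted p = 0.44). Nr4a1, an orphan receptor induced by cyclic AMP, was among the genes called lower without vehicle replicate 1 (log2 fold change -0.22, SE 0.05, adjusted p = 0.019).

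Genes of lysosomal sterol handling and of the other carriers were also not called. Of 12 lysosomal genes none had an unadjusted p under 0.05 (median log2 fold change -0.05, 4 positive and 8 negative). The signs turned to 7 positive and 5 negative without vehicle replicate 1. Vps4a, an ATPase of endosomal sorting, was at 64.6 ± 3.75 CPM in vehicle and 58.9 ± 3.19 CPM in BCAA libraries (edgeR adjusted p = 0.53). Tmem97, which limits NPC1 protein, and Lamp2, a lysosomal membrane glycoprotein, were high in vehicle replicate 1 alone (131 and 586 CPM). Without that library their log2 fold changes turned from -0.12 and -0.08 to 0.06 and 0.02.

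In the list of oxysterol-binding and contact-site carriers, 19 genes were tested and 4 had an unadjusted p under 0.05 (median log2 fold change 0.02, 11 positive and 8 negative). Cav1, the cholesterol-binding coat protein of caveolae, was at 94.0, 78.0 and 82.8 CPM in vehicle and 66.3, 61.6 and 76.5 CPM in BCAA libraries. The groups did not overlap, but the lowest vehicle and the highest BCAA library were close (log2 fold change -0.32, SE 0.09, edgeR adjusted p = 0.18). Anxa6, an annexin that affects cholesterol leaving late endosomes, was at 168 ± 8.08 and 147 ± 0.584 CPM (adjusted p = 0.25), and was called without vehicle replicate 1 (log2 fold change -0.22, adjusted p = 0.025). Osbpl11, an oxysterol-binding protein relative, was at 59.1 ± 4.99 and 69.8 ± 1.48 CPM (adjusted p = 0.25).

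For uptake and export, the genes with the smallest p were higher with BCAA but did not pass. Vldlr, a receptor for triglyceride-rich lipoproteins, was at 84.2, 84.0 and 78.0 CPM in vehicle and 105, 102 and 106 CPM in BCAA libraries, well apart (log2 fold change 0.35, SE 0.07, edgeR adjusted p = 0.057). It was called with DESeq2 (adjusted p = 0.0083), without scaling factors (0.046; 0.236% of all genes called), with all genes kept whatever their counts (0.017; 0.748% of all genes called) and without vehicle replicate 1 (0.0024), and its adjusted p ran from 0.0024 to 0.25 over the 11 alternatives. In that list of 11 tested genes, 6 log2 fold changes were positive and 5 negative (median 0.02; 1 with an unadjusted p under 0.05). The scavenger receptor gene Cd36 was at 3.22 ± 0.0809 and 2.18 ± 0.981 CPM (log2 fold change -0.58, edgeR adjusted p = 0.46; -0.98 without BCAA replicate 3 and -0.36 without BCAA replicate 1) and Mylip, the ligase that degrades the LDL receptor and an LXR target, at 12.5 ± 0.836 and 14.6 ± 1.68 CPM (adjusted p = 0.51).

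Abca5, a lysosomal relative of Abca1, was at 15.04, 13.6 and 14.97 CPM in vehicle and 22.4, 19.2 and 19.6 CPM in BCAA libraries, without overlap. Its log2 fold change was 0.49 (SE 0.11, edgeR adjusted p = 0.092). It was called with DESeq2 (adjusted p = 0.042), with all genes kept (0.042) and without vehicle replicate 1 (0.019), within a range of 0.019 to 0.35 over the alternatives. In the list of efflux genes and LXR targets 13 were tested, 4 with an unadjusted p under 0.05 (median log2 fold change -0.05, 6 positive and 7 negative). Pltp, the phospholipid transfer protein, was at 26.5 ± 0.381 and 22.5 ± 1.02 CPM (adjusted p = 0.36), and Nr1h3, which encodes LXR alpha, at 10.6 ± 0.785 and 8.28 ± 1.35 CPM (adjusted p = 0.38).

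Beside Soat1, the genes of cholesterol ester turnover with the smallest p were Plin2 and Nceh1. Plin2, a coat protein of lipid droplets, was at 842, 908 and 890.1 CPM in vehicle and 1045, 1110 and 1048 CPM in BCAA libraries (log2 fold change 0.28, SE 0.06, edgeR adjusted p = 0.071). Nceh1, a neutral cholesterol ester hydrolase, was at 79.8, 65.5 and 67.6 CPM in vehicle and 90.5, 85.6 and 93.5 CPM in BCAA libraries (log2 fold change 0.34, SE 0.08, adjusted p = 0.12). Both had groups without overlap. Plin2 was called with DESeq2 (adjusted p = 0.012), with all genes kept (0.024) and without vehicle replicate 1 (0.0078), and Nceh1 was called with all genes kept (0.035) and without vehicle replicate 1 (0.00075). Over the 11 alternatives the adjusted p ran from 0.0078 to 0.38 for Plin2 and from 0.00075 to 0.39 for Nceh1. Of the 8 genes tested, 5 log2 fold changes were positive and 3 negative (median 0.03). Ch25h, which makes 25-hydroxycholesterol, was at 242 ± 9.10 and 258 ± 22.6 CPM (adjusted p = 0.66).

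In the fit to all 6 libraries, genes of SREBP sensing and sterol synthesis had the most one-sided signs of the 10 lists, although no gene was called. Of 24 log2 fold changes 19 were positive and 5 negative, with a median of 0.08, and 2 genes had an unadjusted p under 0.05. Vehicle replicate 1 was the lowest library for this list, and without it 16 values were positive and 8 negative (median 0.07). Other lists were then more one-sided, such as ester turnover (7 positive, 1 negative) and steroid synthesis (2 positive, 10 negative). Neither of those leans was present without vehicle replicate 3 (4 positive and 4 negative for ester turnover, 6 and 6 for steroid synthesis). The list of SREBP sensing and sterol synthesis had 18 positive and 6 negative values in that fit. Insig1, which holds the SREBP complex in the endoplasmic reticulum, was at 867, 887 and 874 CPM in vehicle and 944, 1022 and 1025 CPM in BCAA libraries, without overlap (log2 fold change 0.19, SE 0.06, edgeR adjusted p = 0.24). Tm7sf2, a sterol reductase, was at 53.5 ± 8.51 and 64.2 ± 4.56 CPM (adjusted p = 0.36), with vehicle replicate 1 alone low (43.9 CPM) and a log2 fold change that went from 0.26 to 0.14 without it. Cyp51, the lanosterol demethylase, was at 738 ± 28.0 and 799.5 ± 6.16 CPM (adjusted p = 0.47). Without vehicle replicate 1, the isomerase gene Idi1 (log2 fold change 0.24) and the desaturase gene Sc5d (0.20) were called higher and Scap, the SREBP escort, was called lower (-0.26), with edgeR adjusted p of 0.027, 0.046 and 0.039.

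The 5 genes whose levels were most like those of Star over the 6 libraries were not among the cholesterol genes looked up. Those genes are a small part of all genes compared, so nothing is read from this. Likeness was measured as Pearson's r of log2 CPM between Star and each of 8458 genes with a mean of at least 10 CPM, as a description. It mainly reflects a lower level in all BCAA libraries, which share their treatment. The 5 genes with the highest r were Fam20c, a secretory pathway kinase, Avpr1a, the vasopressin receptor 1A, Cycs, cytochrome c, Smarca4, a chromatin remodelling ATPase, and Ctnna1, alpha-catenin, with r from 0.990 to 0.995. Their differences were of unlike size. Avpr1a was at 20.4 ± 1.65 CPM in vehicle and 13.3 ± 0.724 CPM in BCAA libraries (log2 fold change -0.61, SE 0.11), close to the fold change of Star, and Ctnna1 at 352 ± 1.22 and 328 ± 1.44 CPM (log2 fold change -0.10, SE 0.06). Among the other genes of the set the highest r with Star was that of Tspo (0.58) and the lowest that of Npc1 (-0.76).

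**Figure D4:**
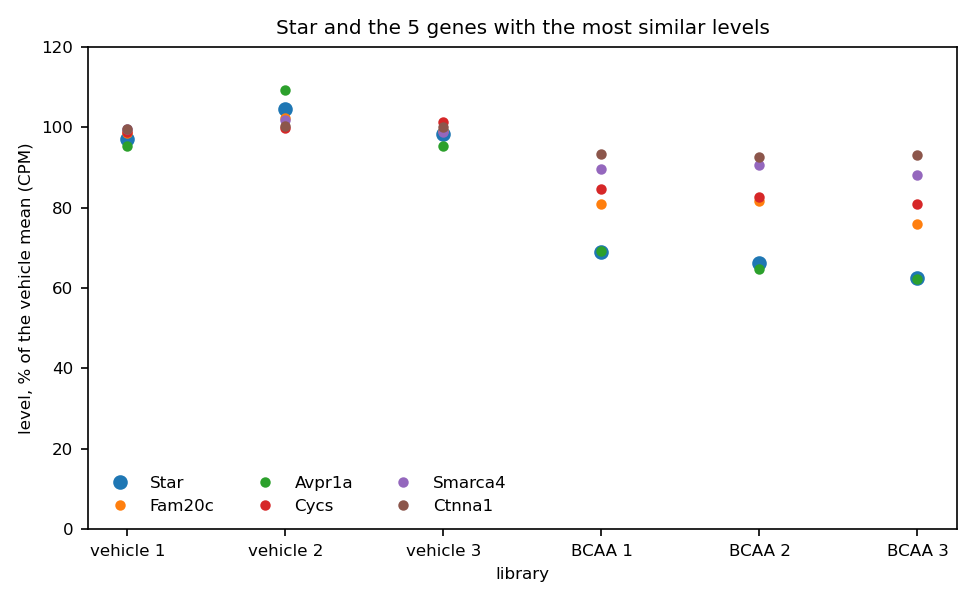
Level of Star and of the 5 genes with the most similar levels, as percent of each gene's vehicle mean (vertical axis, from 0), in the 3 vehicle and 3 BCAA libraries (horizontal axis). All 6 genes lie lower in the BCAA libraries, with Star and Avpr1a lowest and Ctnna1 nearest to the vehicle mean.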

How the data were processed

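RNA of 6 libraries (3 vehicle, 3 BCAA) was sequenced by the submitters. The deposited file holds raw read counts per gene symbol, neither normalized nor pooled. The submitters' processing notes name Trimmomatic, FastQC, STAR, HTSeq and rn6; their versions, the annotation and the strand setting are not given in the sources used. No rn6 annotation was used, so no coordinates are printed and levels are not corrected for gene length. Where levels of different genes are summed or set side by side, they are therefore amounts of reads, not of transcripts.

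Columns were matched to libraries by title. Counts were fitted with edgeR 4.0.16 (R 4.3.3), with TMM scaling, filterByExpr defaults (minimum count 10, minimum total 15), robust quasi-likelihood tests with group as the only term, and Benjamini-Hochberg adjustment over 12298 genes, called under 0.05. SE is the size of the log2 fold change divided by the square root of F. The fits were tested on simulated data. The alternatives were DESeq2 1.42.0, RLE scaling, no scaling factors, no low-count filter, the replicate number as a block, and each library left out in turn. Chi-square per degree of freedom between libraries was at least 2.65, so no library repeated another.

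The members and all gene lists were chosen with earlier results of these data known. Older symbols were looked up in the RefSeq table of assembly GRCr8. Named from each list were its called genes or, with none called, the 3 with the smallest p. The 5 genes most like Star were named by Pearson's r (log2 CPM, prior count 2, mean of at least 10 CPM). Genes named outside this rule (Nr4a1, Idi1, Sc5d, Scap, Cyp11a1, Cyp17a1, Cyp19a1, Nr5a1, Abcg2 and single marker genes) were chosen after their values were seen.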

Additional observations from a re-analysis of the deposited data

How the results depend on the processing

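The log2 fold change of Star ran from -0.64 to -0.57 over the 11 alternatives, and the number of the 10 genes called was 1, Star, under each of them; since Star was chosen on this contrast in these libraries, this adds no support. None of the 110 values of the 10 genes moved by more than the spread between libraries. Leaving out 1 of 3 libraries could hardly move a value that far, so no stability is read from this. The log2 fold change of Stard4 went from 0.21 to 0.09 without BCAA replicate 1, and that of Abca1 from 0.11 to 0.02. The number of all genes called, 28, was 127 in DESeq2, 124 when all genes were kept whatever their counts, and from 7 to 491 when libraries were left out in turn, the highest without vehicle replicate 1. Of the 146 other cholesterol genes, 0 were called, and the number was 3 in DESeq2, 1 without scaling factors, 4 when all genes were kept, and from 0 to 12 with libraries left out, the highest again without vehicle replicate 1. With libraries left out in turn the log2 fold change of Tmem97 ran from -0.21 to 0.060 and that of Lamp2 from -0.14 to 0.020, positive only without vehicle replicate 1. A block for the replicate number gave 6 called genes (0.0488% of those tested), with Star among them and 0 of the 146. Deviations of same-numbered libraries from their group means correlated at -0.15 to 0.10, so the numbers were not taken as pairs. The cause of these shifts was not tested. Depth limits Stard5 and Stard4 most, with 140 to 381 reads per library.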
